A study of Homo sapiens with 9 samples.

Results

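The IL-6 family and colony-stimulating factor genes were followed as 10 members: the cytokine genes IL6, IL11 and LIF, the receptor genes IL6ST, LIFR and OSMR, the feedback inhibitor gene SOCS3, and CSF1, CSF2 and CSF3. They were taken by symbol from 61155 gene symbols, and all 10 passed the filter on low counts that left 17759 genes for testing. RNA came from MDA-MB-231, an established human breast cancer cell line of mesenchymal type. The knockout cells were 2 clones edited to knock out FBXL12, called KO1 and KO2, with 3 libraries each. The control cells (WT), also with 3 libraries, had received a scrambled guide RNA. FBXL12 encodes the substrate-binding part of an SCF ubiquitin ligase. Each clone descends from 1 cell, so the libraries of a clone do not sample the knockout itself again. The labels do not say whether libraries came from separate cultures, and the p-values thus cover library-to-library spread alone, possibly of technical origin.

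IL-6 type cytokines bind a ligand-specific receptor that pairs with gp130, the product of IL6ST, and the bound JAK kinases then activate STAT3. SOCS3 is a STAT3 target whose protein binds gp130 and JAK and shuts the signal off. The colony-stimulating factors use other receptors. CSF1 drives macrophages, CSF2 drives granulocytes and macrophages, and CSF3 drives neutrophils, and breast cancer cells are known to secrete members of both families.

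The members were in part selected on 1 measured result, the difference in CSF3 counts between the clones. They were also chosen with earlier results of these data known, so counts of members called against WT are not free of that choice. Differences between KO1 and KO2 are therefore given as descriptions for all members, and CSF3 is described without a test throughout. The other 9 members were tested against WT with edgeR's quasi-likelihood test, with p-values adjusted by the Benjamini-Hochberg method over all genes tested; a gene is called at an adjusted p under 0.05. Levels are CPM, read counts relative to the scaled library total, means carry the SD of 3 libraries, and log2 changes carry standard errors.

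Total counts ran from 52427841 to 97243363 per library. FBXL12 mRNA was at 9.57, 9.95 and 9.40 CPM in KO1, 6.14, 6.36 and 5.33 CPM in KO2, and 22.2, 23.4 and 21.4 CPM in WT, so it was lower but present in each clone. Its log2 change was -1.21 ± 0.08 in KO1 and -1.91 ± 0.08 in KO2. The 20 protein-coding genes nearest to it had medians of -0.38 in KO1 and -0.83 in KO2. The 9 markers listed for this line, among them VIM and the keratin gene KRT18, all passed the filter on low counts. They summed to 8061 to 8203 CPM in KO1, 9393 to 9568 CPM in KO2 and 7510 to 7996 CPM in WT. VIM led at 2761, 3331 and 2811 CPM in KO1, KO2 and WT. Not all markers of this list moved alike. CAV1 was called higher in KO1 and lower in KO2, at 931, 556 and 812 CPM in KO1, KO2 and WT. EGFR was called lower in KO1 and higher in KO2, at 459, 817 and 527 CPM. The 8 markers of luminal breast epithelium summed to 391 to 468 CPM in KO1, 384 to 436 CPM in KO2 and 464 to 548 CPM in WT, led by the keratin gene KRT8 at 347, 343 and 415 CPM, with PGR at 0 in every library. Among them EPCAM was at 4.52, 0.824 and 1.77 CPM in KO1, KO2 and WT. The part of these markers in the members' changes was not tested. The 8 leukocyte markers summed to 1.85 to 2.55 CPM in KO1, 1.94 to 2.81 CPM in KO2 and 1.92 to 2.57 CPM in WT. Among them LYZ was at 0.994, 0.841 and 0.6375 CPM, CSF1R at 0.388, 0.998 and 0.997 CPM, and PTPRC at 0.132, 0.127 and 0.149 CPM. The 7 fibroblast markers summed to 4.41 to 5.12, 4.29 to 4.94 and 4.67 to 5.86 CPM, with LUM at 0. COL1A1 of this list was at 3.06, 2.47 and 4.10 CPM and was called lower in both clones. PDGFRB was at 1.68, 1.84 and 1.18 CPM and was called higher in both. The 5 endothelial markers summed to 21.8 to 22.4, 19 to 21.6 and 14.8 to 15.7 CPM, nearly all of it KDR, while CDH5 was at 0.152, 0.0831 and 0.116 CPM. In bulk RNA, fewer expressing cells and less RNA per cell cannot be told apart.

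In KO1, 6 of the 9 tested members rose, 0 fell and 3 did not pass the threshold; over all genes tested, 34.8% were called, 18.0% up and 16.8% down. In KO2, 3 rose, 2 fell and 4 did not pass, against 49.4% of all genes called, 24.7% up and 24.7% down. IL6 rose in both clones. LIF, IL6ST and OSMR rose in KO1 and did not pass in KO2, and IL11 and LIFR rose in KO2 and did not pass in KO1. CSF1 and CSF2 rose in KO1 and fell in KO2, and SOCS3 did not pass in either clone. Counted by libraries instead, 6 of these 9 members lay above all WT libraries in KO1, 0 below and 3 overlapped, where 46.5% of all genes did not overlap (23.8% above, 22.7% below). In KO2 5 of the 9 lay above, 2 below and 2 overlapped, where 58.8% of all genes did not (29.5% above, 29.3% below). Both comparisons use the same 3 WT libraries. The median log2 change of the 10 members, CSF3 included, was 0.46 in KO1 and 0.11 in KO2. Without CSF3 the middle value of the 9 tested members was 0.38 in KO1 (CSF1) and 0.11 in KO2 (SOCS3). All genes tested had medians of -0.005 in KO1 and -0.008 in KO2.

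**Figure D1:**
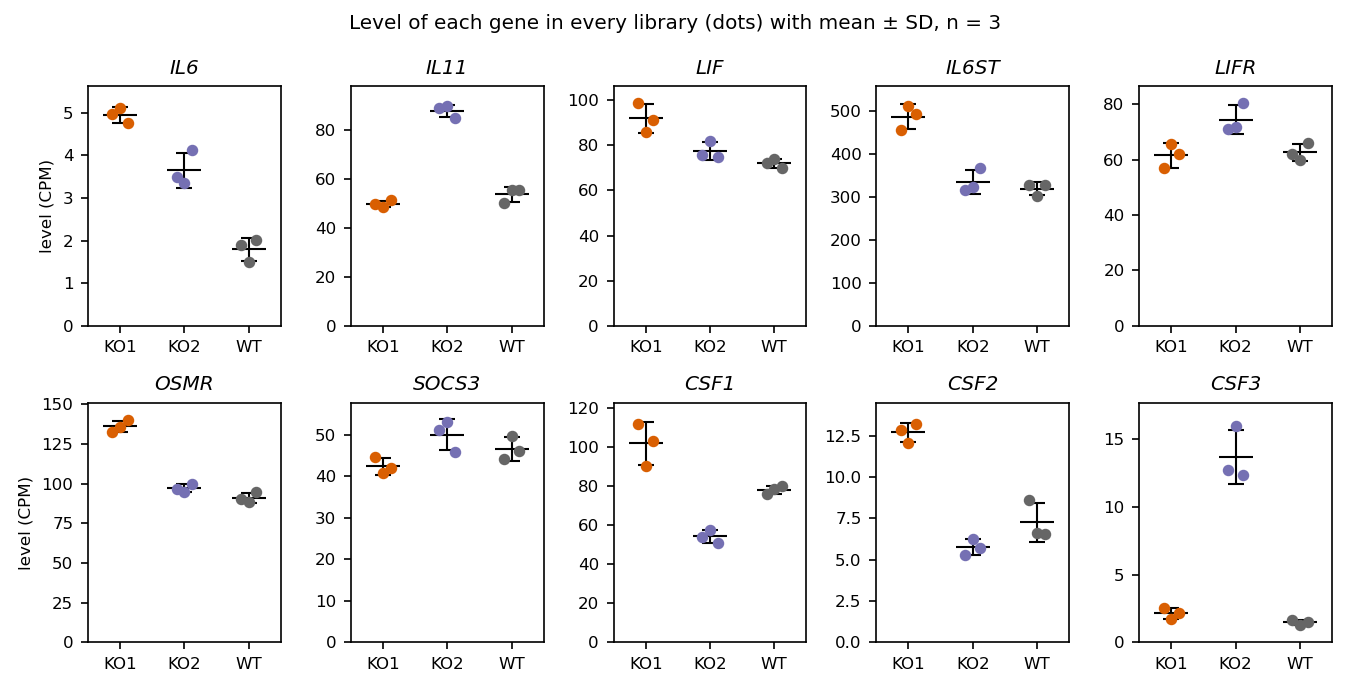
Level of each of the 10 genes in CPM (vertical axis, from 0) in the libraries of KO1, KO2 and WT (dots), with the mean and SD of 3 libraries. IL6 lies above WT in both clones, CSF1 and CSF2 lie above WT in KO1 and below WT in KO2, and CSF3 averages 13.7 CPM in KO2 against 2.15 CPM in KO1 and 1.48 CPM in WT.

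The cytokine IL6 (ENSG00000136244.11, chromosome 7, 22725884 to 22732002, plus strand, GRCh38), which encodes interleukin-6, was at a low level in every group. It was at 4.96, 5.11 and 4.76 CPM in KO1, 3.50, 3.34 and 4.12 CPM in KO2, and 1.89, 1.497 and 2.00 CPM in WT. All libraries of KO1 lay above those of KO2, and all of these above WT. The log2 change was 1.45 ± 0.13 in KO1 (adjusted p = 6.8e-07, 95% interval 1.18 to 1.73). For KO2 it was 1.02 ± 0.13 (adjusted p = 1.17e-05, 0.74 to 1.30). In KO2 the 20 nearest protein-coding genes had a median change of 0.41, against -0.07 in KO1; the part of that stretch in the KO2 change was not tested.

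IL11 (ENSG00000095752.6, chromosome 19, 55364389 to 55370463, minus strand), whose protein signals through gp130 and is known from bone metastasis models of this cell line, moved in 1 clone. Its levels were 49.7, 48.7 and 51.2 CPM in KO1, 88.9, 89.6 and 85.0 CPM in KO2, and 50.2, 55.5 and 55.6 CPM in WT. KO2 stood apart from both other groups, which overlapped. The log2 change was 0.71 ± 0.05 in KO2 (interval 0.60 to 0.82, adjusted p = 2.1e-08), and in KO1 it was -0.11 ± 0.05 (adjusted p = 0.114). The 20 nearest genes had medians of -0.32 in KO1 and -0.25 in KO2; the part of that stretch in the IL11 values was not tested.

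LIF (ENSG00000128342.4, chromosome 22, 30240447 to 30246851, minus strand) encodes leukemia inhibitory factor, which signals through LIFR and gp130. It was at 98.7, 85.6 and 91.1 CPM in KO1, 75.5, 81.8 and 74.8 CPM in KO2, and 72.0, 73.8 and 69.9 CPM in WT. The groups did not overlap, with KO1 highest and WT lowest. LIF rose by 0.35 ± 0.06 in KO1 (interval 0.24 to 0.47, adjusted p = 0.000161). KO2 gave 0.11 ± 0.06 (adjusted p = 0.127, interval -0.01 to 0.22); this passed at 0.14 with upper quartile scaling (adjusted p = 0.0413) and at 0.24 once each library's GC trend was taken out (adjusted p = 4.42e-06).

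Per kilobase of exon, with all annotated exons of a gene counted, IL11 and LIF lay far above IL6 in every group. That length can differ from that of the mRNA expressed. Comparisons between genes on this scale are therefore approximate, and the SDs do not cover an error in length. IL11 was at 18.7 ± 0.48, 32.9 ± 0.93 and 20.1 ± 1.14 CPM per kilobase in KO1, KO2 and WT. LIF was at 23.1 ± 1.66, 19.5 ± 0.98 and 18.1 ± 0.49, and IL6 at 2.39 ± 0.09, 1.77 ± 0.20 and 0.868 ± 0.13. As shares of the summed level of these 3 cytokines, IL6 held 5.42% ± 0.375 in KO1, 3.27% ± 0.458 in KO2 and 2.23% ± 0.364 in WT. IL11 held 42.3% ± 1.48, 60.7% ± 0.805 and 51.5% ± 1.62. The order of IL11 and LIF on this scale thus turned: LIF was above IL11 in each KO1 library, and IL11 was above LIF in each library of KO2 and WT. In WT this order depended on the exon lengths used, 2671 bases for IL11 and 3969 for LIF. Before division by length LIF was above IL11 in WT, at 71.9 and 53.8 CPM.

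Promoter sequence from RefSeq (GRCh38.p14) was found by symbol for 7 of the 10 members, all but LIF, CSF1 and CSF3. The 250 bases before the start site are printed for IL6, IL11 and CSF2, the cytokine genes of that set, because they had 3 different patterns: higher in both clones, higher in KO2, and higher in KO1 but lower in KO2. They end at the RefSeq start site, which for IL6 lies inside the GENCODE gene bounds above, and span chr7:22726950-22727199 on the plus strand, chr19:55370464-55370713 on the minus strand and chr5:132073539-132073788 on the plus strand. Capitals mark matches, on either strand, to letters of factors known to act on cytokine genes, which were searched as follows: NF-kB (GGG, any 2 bases, then TTTCC), C/EBP (TTNNGCAAT), AP-1 (TGANTCA), STAT (TTCNNNGAA), a CK-1 core of the colony-stimulating factor promoters (GAGATTCC) and the TATA box (TATAAA).
IL6: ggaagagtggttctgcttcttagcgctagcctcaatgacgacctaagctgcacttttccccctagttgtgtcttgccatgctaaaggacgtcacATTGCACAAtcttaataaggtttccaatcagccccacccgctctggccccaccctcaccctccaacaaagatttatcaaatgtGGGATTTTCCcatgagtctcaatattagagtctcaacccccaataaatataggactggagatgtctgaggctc
IL11: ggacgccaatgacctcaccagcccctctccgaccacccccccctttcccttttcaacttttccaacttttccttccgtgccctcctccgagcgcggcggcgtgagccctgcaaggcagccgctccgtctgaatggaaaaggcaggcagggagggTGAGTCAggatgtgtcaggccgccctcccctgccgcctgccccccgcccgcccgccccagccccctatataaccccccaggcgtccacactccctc
CSF2: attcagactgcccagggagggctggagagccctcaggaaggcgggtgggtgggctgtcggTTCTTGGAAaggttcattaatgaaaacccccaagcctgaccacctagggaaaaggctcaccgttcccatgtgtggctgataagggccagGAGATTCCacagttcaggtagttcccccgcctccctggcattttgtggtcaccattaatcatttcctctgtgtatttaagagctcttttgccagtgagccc
In IL6 the capitals are an NF-kB match that starts 73 bases before the start site and a C/EBP match on the other strand 156 bases before it. IL11 had an AP-1 match 96 bases before its start site. CSF2 had a CK-1 core match at 101 bases and a STAT match at 190 bases before its start site. No 2 matches overlapped in these 3 sequences. Over 35116 promoters cut to the same length, 1.73% held the NF-kB letters, 2.04% the C/EBP letters, 6.57% the AP-1 letters, 6.57% the STAT letters, 0.735% the CK-1 core and 10.7% the TATA box. A match is a run of letters and was not measured as a bound site.

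Among the receptors, IL6ST (ENSG00000134352.19, chromosome 5, 55935095 to 55994993, minus strand) gives the shared subunit gp130 and had the highest level per kilobase of the 10 genes in each group. Its levels were 455, 511 and 494 CPM in KO1, 316, 323 and 367 CPM in KO2, and 327, 301 and 328 CPM in WT. KO1 stood above both other groups, and KO2 overlapped with WT. IL6ST rose by 0.61 ± 0.06 in KO1 (interval 0.48 to 0.74, adjusted p = 4.63e-06). For KO2 the value was 0.07 ± 0.06 (adjusted p = 0.338, interval -0.06 to 0.20), and -0.001 without KO2 replicate 3.

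OSMR (ENSG00000145623.12, chromosome 5, 38845858 to 38945596, plus strand), the receptor subunit that binds oncostatin M, followed a like course. It was at 133, 136 and 140 CPM in KO1, 96.9, 94.7 and 100.01 CPM in KO2, and 90.6, 88.4 and 94.5 CPM in WT. Each KO1 library was above all others, and the lowest KO2 library lay just above the highest of WT. OSMR rose by 0.58 ± 0.04 in KO1 (interval 0.49 to 0.67, adjusted p = 1.17e-07). In KO2 it was at 0.09 ± 0.04 (adjusted p = 0.0909), which passed at 0.13 with upper quartile scaling (adjusted p = 0.024) and at 0.10 when genes had to reach 1 CPM in 3 libraries (adjusted p = 0.0481).

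LIFR (ENSG00000113594.9, chromosome 5, 38474963 to 38608354, minus strand), the subunit that binds LIF, is the neighbour of OSMR, with 237503 bases between them. It differed from OSMR in which clone moved. LIFR was at 56.9, 65.7 and 61.9 CPM in KO1, 70.9, 71.8 and 80.4 CPM in KO2, and 62.1, 60.0 and 65.9 CPM in WT. Only the KO2 libraries stood apart, above the rest. The log2 change was 0.25 ± 0.06 in KO2 (interval 0.11 to 0.38, adjusted p = 0.00402). In KO1 it was -0.03 ± 0.06 (adjusted p = 0.774), which passed at -0.13 with the GC trend taken out (adjusted p = 0.00812). The 20 nearest genes of LIFR had medians of 0.11 in KO1 and -0.16 in KO2, and those of OSMR 0.04 and -0.16.

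SOCS3 (ENSG00000184557.4, chromosome 17, 78356778 to 78360077, minus strand), the inhibitor that STAT3 induces, was at 44.6, 40.7 and 41.9 CPM in KO1, 51.2, 53.05 and 45.8 CPM in KO2, and 44.0, 49.6 and 46.0 CPM in WT. Each clone overlapped with WT, while all KO1 libraries lay below those of KO2. The change was -0.13 ± 0.06 in KO1 (adjusted p = 0.118, interval -0.27 to 0.002). It was 0.11 ± 0.06 in KO2 (adjusted p = 0.189, interval -0.03 to 0.24). The result depended on the GC trend of the libraries. With that trend removed SOCS3 was at 0.08 in KO1 (adjusted p = 0.101), where the sign turned, and at 0.35 in KO2 (adjusted p = 1.47e-07), where it passed. Without KO2 replicate 3 it also passed in KO2, at 0.16 (adjusted p = 0.0488).

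Among the colony-stimulating factors, CSF1 (ENSG00000184371.13, chromosome 1, 109910242 to 109930992, plus strand), which encodes macrophage colony-stimulating factor, was at 112, 90.3 and 103 CPM in KO1, 54.2, 57.7 and 51.0 CPM in KO2, and 75.8, 78.5 and 79.9 CPM in WT. The 3 groups did not overlap, with KO1 above and KO2 below WT. CSF1 rose by 0.38 ± 0.07 in KO1 (adjusted p = 0.000659, interval 0.24 to 0.53). It fell in KO2, with a change of -0.52 ± 0.07 (adjusted p = 2.49e-05, interval -0.67 to -0.37). With the GC trend taken out the changes were 0.58 in KO1 and -0.30 in KO2, both still called. Its 20 nearest genes had medians of -0.01 in KO1 and 0.21 in KO2.

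CSF2 (ENSG00000164400.5, chromosome 5, 132073790 to 132076170, plus strand), which encodes granulocyte-macrophage colony-stimulating factor, had 12.9, 12.04 and 13.2 CPM in KO1, 5.30, 6.27 and 5.69 CPM in KO2, and 8.62, 6.63 and 6.53 CPM in WT. KO1 lay above and KO2 below all WT libraries, but the highest KO2 library came close to the lowest of WT. CSF2 rose by 0.80 ± 0.11 in KO1 (interval 0.57 to 1.03, adjusted p = 3.92e-05). Its change of -0.34 ± 0.11 in KO2 (interval -0.58 to -0.10) was called at adjusted p = 0.019. That call was lost without WT replicate 1 (-0.19, adjusted p = 0.148), KO2 replicate 1 (-0.30, adjusted p = 0.0716) and KO2 replicate 3 (-0.34, adjusted p = 0.0502).

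CSF3 (ENSG00000108342.12, chromosome 17, 40015361 to 40017813, plus strand), which encodes granulocyte colony-stimulating factor, had 2.55, 1.73 and 2.17 CPM in KO1, 12.7, 15.95 and 12.3 CPM in KO2, and 1.62, 1.28 and 1.54 CPM in WT. KO2 stood far above both other groups, and KO1 lay above WT by a narrow margin. The counts behind these levels ran from 137 to 199 in KO1, 665 to 1051 in KO2 and 78 to 159 in WT. The ratio of means was 9.23 for KO2 over WT and 1.45 for KO1 over WT, with log2 changes of 3.20 ± 0.15 and 0.53 ± 0.16. By size of its change in KO2, CSF3 ranked 133 of 17759 genes. Its 20 nearest genes had medians of -0.07 in KO2 and -0.08 in KO1. This difference led to the choice of the gene, so no test is given.

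**Figure D2:**
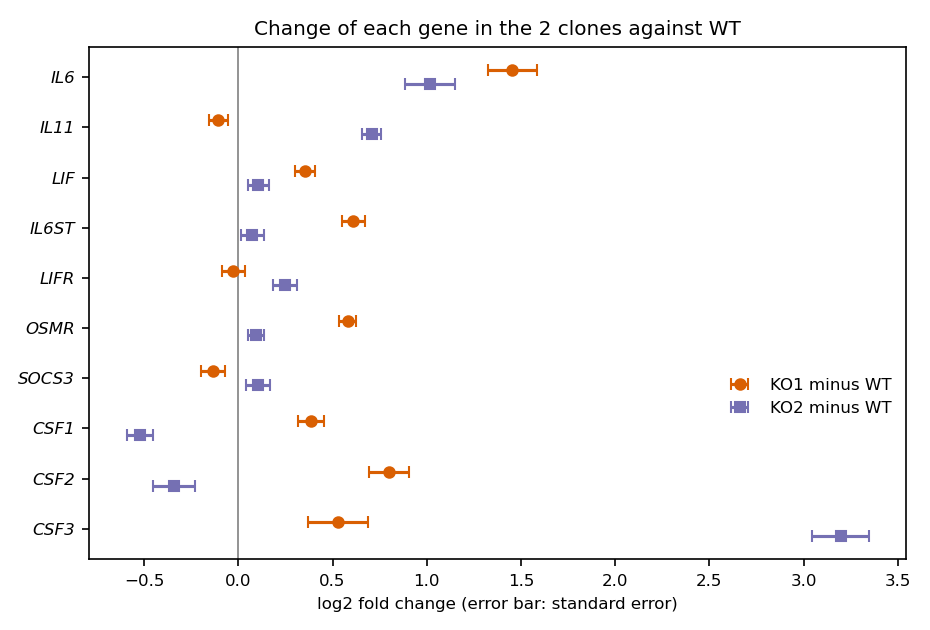
Log2 fold change (horizontal axis) of each of the 10 genes in KO1 (circles) and KO2 (squares) against WT, with standard errors. CSF3 in KO2 lies at 3.20, IL6 lies at 1.45 in KO1 and 1.02 in KO2, and CSF1 and CSF2 lie to the right of 0 in KO1 and to the left of 0 in KO2.

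The make-up of colony-stimulating factor mRNA differed accordingly. As shares of the summed level of the 3 genes per kilobase of exon, CSF3 held 25.5%, 27.9% and 25.01% in the KO2 libraries, 3.01%, 2.39% and 2.65% in those of KO1 and 2.84%, 2.46% and 2.92% in those of WT. KO1 and WT overlapped for CSF3. CSF1 held 52.3% ± 1.67 in KO1, 42.7% ± 1.64 in KO2 and 59.4% ± 4.28 in WT, and CSF2 held 45.02% ± 1.98, 31.1% ± 1.32 and 37.8% ± 4.21. CSF1 remained the most abundant of the 3 in each library on this scale. These shares contain CSF3 and are given without a test.

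**Figure D3:**
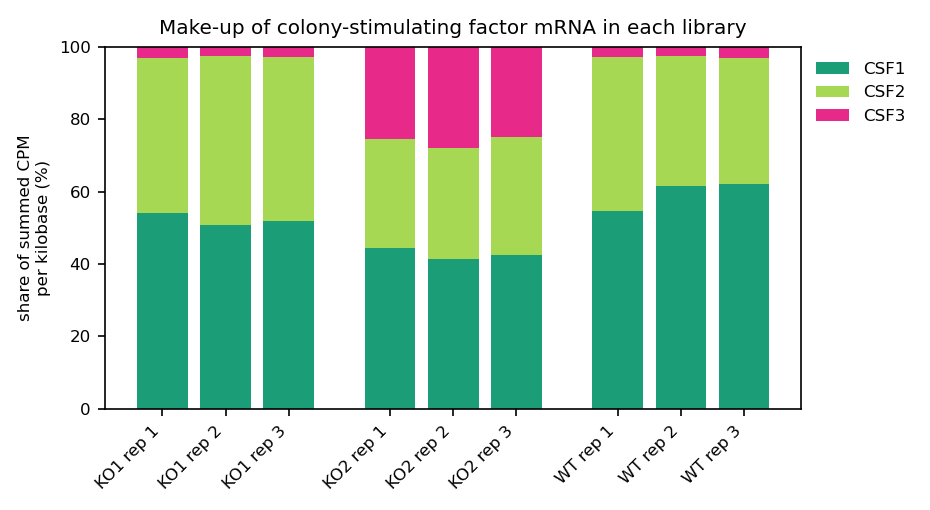
Share of CSF1, CSF2 and CSF3 in their summed CPM per kilobase of exon (vertical axis, percent) in each of 9 libraries. CSF3 makes up 25.01% to 27.9% in KO2 libraries and 2.39% to 3.01% in those of KO1 and WT.

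Over all 10 genes, the level per kilobase of exon put IL6ST first in each group, at 52.4 ± 3.13 CPM per kilobase in KO1, 36.1 ± 2.96 in KO2 and 34.3 ± 1.65 in WT. CSF3 was last in KO1 (0.969 ± 0.18) and WT (0.667 ± 0.08), and in KO2 it stood above IL6, at 6.16 ± 0.89 beside 1.77 ± 0.20. In WT the order below IL6ST was IL11 (20.1), LIF (18.1), SOCS3 (17.0), CSF1 (14.4), OSMR (12.7), CSF2 (9.23), LIFR (5.28) and IL6 (0.868). OSMR held place 3 in KO1 (18.99), against place 6 in WT. CSF1 (18.8) and IL11 (18.7) lay right beside it in KO1 and differed from it by less than their SDs. CSF3 and LIFR stood next to each other in KO2, at 6.16 and 6.27, and differed by less than their SDs.

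Set directly against each other, all 10 members had libraries that did not overlap between KO1 and KO2, 6 higher in KO1 and 4 higher in KO2, where 55.1% of all genes tested did not overlap (26.7% higher in KO1, 28.4% higher in KO2). The log2 differences (KO1 minus KO2) were 1.14 for CSF2, 0.91 for CSF1, 0.54 for IL6ST, 0.49 for OSMR, 0.44 for IL6 and 0.25 for LIF. They were -2.67 for CSF3, -0.82 for IL11, -0.27 for LIFR and -0.24 for SOCS3. The members were chosen with this contrast known, and nothing is read from the count.

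The genes whose pair of changes lay closest to that of IL6, among 12716 other genes whose mean log2 CPM was 0 or more, were AP005131.6, the neutrophil chemokine gene CXCL8, the gene of the inflammatory protease CASP1, the interferon-stimulated gene OAS3, FUT1 and LDLRAD4. Likeness was measured as the distance between the log2 changes in KO1 and KO2, over 9 libraries in 3 groups, and ran from 0.10 to 0.21 for these genes. CXCL8 was at 231, 183 and 82.5 CPM in KO1, KO2 and WT. For CSF3 the closest genes were the small heat shock protein gene HSPB8, RIMS3, NPTXR, MAPRE3, TAF9 and TMEM229B, at distances of 0.30 to 0.73. HSPB8 was at 0.560, 4.44 and 0.463 CPM in KO1, KO2 and WT, and NPTXR at 4.34, 27.2 and 3.83 CPM. TAF9 differed among the KO2 libraries, at 6.45, 0.804 and 5.28 CPM.

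Outside the members, 113 genes of the same pathways were counted, of which 93 were tested. In KO1, 31 rose, 12 fell and 50 did not pass, with a median log2 change of 0.10. In KO2, 23 rose, 34 fell and 36 did not pass, with a median of -0.03 (-0.025). The calls are set beside 34.8% of all genes called in KO1 (18.0% up, 16.8% down) and 49.4% in KO2 (24.7% up, 24.7% down).

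**Figure D4:**
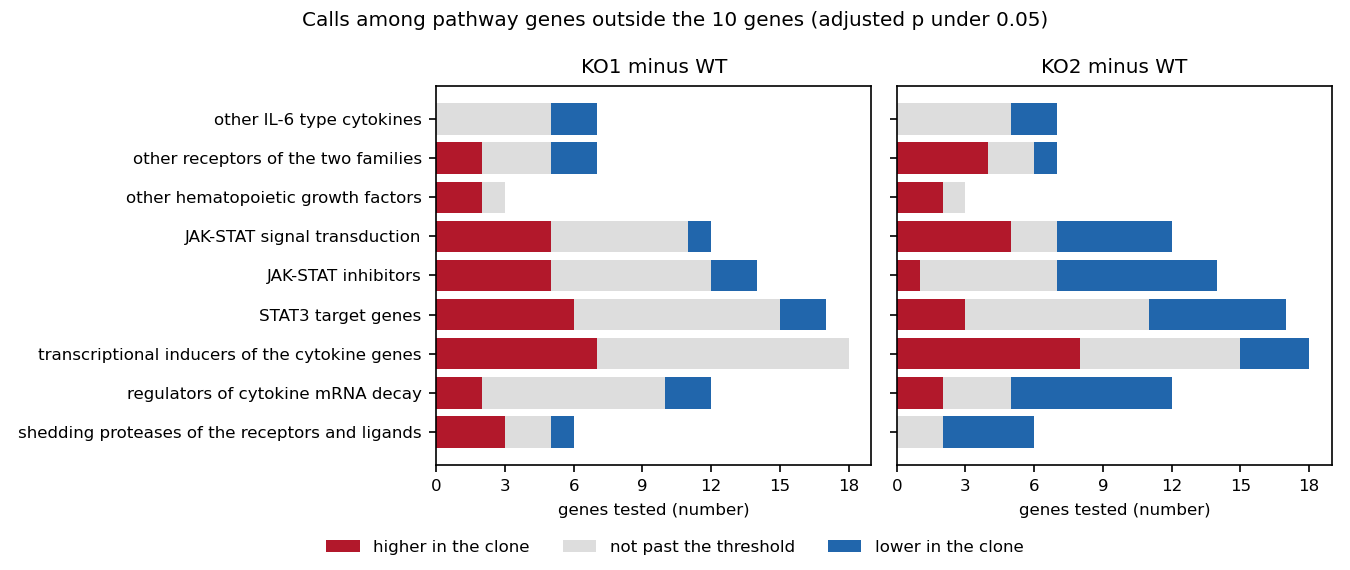
Number of tested genes (horizontal axis) that were higher in the clone, not past the threshold or lower in the clone, for 9 lists of pathway genes, in KO1 (left) and KO2 (right) against WT. Of the 14 JAK-STAT inhibitors, 5 rose and 2 fell in KO1, and 1 rose and 7 fell in KO2. Over all genes tested, 18.0% rose and 16.8% fell in KO1, and 24.7% rose and 24.7% fell in KO2.

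Of 10 other cytokine genes of the IL-6 type 7 were tested; 0 rose, 2 fell and 5 did not pass in each clone. CLCF1, a ligand of the CNTF receptor, was at 20.2, 14.2 and 21.5 CPM in KO1, KO2 and WT and was called in KO2 (-0.60, adjusted p = 1.98e-05). The cardiotrophin gene CTF1 was called in KO1 (-0.65, adjusted p = 0.00012), at -0.37 after removal of the GC trend. In KO2 it was not called at 0.02 (adjusted p = 0.894), but passed at 0.37 after that removal (adjusted p = 0.00566). CNTF in KO2 (-0.58, adjusted p = 0.0144) lost its call without WT replicate 2 (-0.51) and KO2 replicate 1 (-0.44). OSM, whose product is the main ligand of OSMR, had at most 2 counts in a library.

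Of 9 other receptor genes 7 were tested. In KO1 2 rose and 2 fell, and in KO2 4 rose and 1 fell. IL6R, the subunit that binds interleukin-6, rose in both clones, with 8.73, 11.7 and 5.86 CPM in KO1, KO2 and WT and log2 changes of 0.58 ± 0.08 (adjusted p = 8.25e-05) and 1.00 ± 0.08 (adjusted p = 1.3e-07). CSF3R, the receptor of CSF3, had 0 counts in each of the 9 libraries, which allows up to 0.0309 CPM in the deepest library and 0.0572 CPM in the least deep one. The CSF2 receptor subunit gene CSF2RB was at 0.142, 0.990 and 0.496 CPM, with changes of -1.76 in KO1 (adjusted p = 0.000544) and 1.01 in KO2 (adjusted p = 0.00414). The CSF1 receptor gene CSF1R was at 0.388, 0.998 and 0.997 CPM and fell in KO1 (-1.35, adjusted p = 0.0114). IL27RA was called at 0.24 in KO1 (adjusted p = 0.00704) and -0.29 in KO2 (adjusted p = 0.0016), or 0.41 and -0.11 with the GC trend taken out.

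Among other hematopoietic growth factors 3 of 10 were tested, and 2 rose and 0 fell in each clone. The stem cell factor gene KITLG rose in KO2 (0.51, adjusted p = 5.82e-06), and the lymphocyte growth factor gene IL7 in KO1 (0.73, adjusted p = 0.000168). KITLG was not called in KO1 at -0.12 (adjusted p = 0.153), but passed at -0.21 with the GC trend taken out (adjusted p = 0.00193). IL15 was called at 0.36 in KO1 (adjusted p = 0.0283) and 0.37 in KO2 (adjusted p = 0.0209). The KO1 call was lost without any 1 WT library (0.37, 0.37 and 0.39 without replicates 1, 2 and 3), KO1 replicate 2 (0.37) or KO1 replicate 3 (0.32). The KO2 call was lost without WT replicate 1 or 2 (0.36 each) or KO2 replicate 1 or 3 (0.35 and 0.33). With no filter on low counts IL15 was not called in KO1 (0.37, adjusted p = 0.0794) or KO2 (0.355, adjusted p = 0.0848), and with the GC trend taken out it was not called in KO1 (0.28, adjusted p = 0.0813).

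Of 12 genes of JAK-STAT signal transduction, 5 rose and 1 fell in KO1, and 5 rose and 5 fell in KO2. JAK1, a kinase bound to gp130, rose in both clones (0.32 ± 0.04 and 0.22 ± 0.04, adjusted p = 2.17e-05 and 0.000395 for KO1 and KO2). STAT5A, which colony-stimulating factor receptors activate, rose by 0.62 and 0.38 (adjusted p = 7e-06 and 0.000297). The kinase gene TYK2 was at 56.0, 33.2 and 84.1 CPM in KO1, KO2 and WT, with changes of -0.59 and -1.34 (adjusted p = 0.000479 and 3.79e-07). Its 20 nearest genes had medians of -0.48 and -0.95, where those of FBXL12, the edited gene, had -0.38 and -0.83. TYK2 was at -0.34 and -1.04 with the GC trend taken out. The part of its chromosomal stretch in its change was not tested.

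Inhibitors of JAK-STAT signalling other than SOCS3 numbered 14, all tested. In KO1 5 rose and 2 fell (median 0.08), and in KO2 1 rose and 7 fell (median -0.16). SOCS6, of the SOCS family, was at 35.9, 17.5 and 26.8 CPM in KO1, KO2 and WT (0.42 and -0.61, adjusted p = 2.28e-05 and 2.55e-07). PIAS1, of the PIAS family of STAT inhibitors, was called at 0.29 and -0.49 (adjusted p = 0.000339 and 1.13e-06), and PIAS2 at -0.56 in KO2 (adjusted p = 1.32e-06). The phosphatase gene PTPN2 was called at 0.20 and -0.45 (adjusted p = 0.0145 and 1.26e-05); its KO1 value was 0.13 and not called without KO1 replicate 2 (adjusted p = 0.0546), and 0.115 with the GC trend taken out.

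Of 24 STAT3 target genes 17 were tested. In KO1 6 rose and 2 fell, and in KO2 3 rose and 6 fell. The adhesion gene ICAM1 was at 56.8, 30.5 and 30.2 CPM in KO1, KO2 and WT and rose in KO1 (0.91, adjusted p = 6.99e-08). In KO2 ICAM1 was not called at 0.02 (adjusted p = 0.856), but passed at 0.15 with the GC trend taken out (adjusted p = 0.00773). The angiogenic factor gene VEGFA was called at 0.33 and -0.67 (adjusted p = 4.53e-05 and 1.57e-08). The kinase gene PIM1 fell in KO2 (-0.65, adjusted p = 4.05e-06). The interleukin-1 receptor gene IL1R1 was at 0.174, 2.01 and 0.158 CPM, a log2 change of 3.69 ± 0.26 in KO2 (adjusted p = 1.53e-08), and is also among the inducers. CEBPB and CEBPD are likewise on both lists, and IL1R1, CEBPB and CEBPD are counted in each list.

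Of 19 inducers of cytokine genes 18 were tested, of which 7 rose and 0 fell in KO1 and 8 rose and 3 fell in KO2. IL1B, which encodes an inflammatory cytokine that induces IL6, was at 58.9, 67.7 and 7.84 CPM in KO1, KO2 and WT, with log2 changes of 2.90 and 3.10 in the clones. IL1A, of the same family, was at 12.8, 17.7 and 3.33 CPM, with changes of 1.93 and 2.40; all 4 changes were called (adjusted p of at most 1.81e-08). The interleukin-17 receptor gene IL17RA rose in KO2 (0.57, adjusted p = 7.33e-06). In KO1 IL17RA was not called at 0.04 (adjusted p = 0.702), but passed at 0.14 with the GC trend taken out (adjusted p = 0.0403). Regulators of cytokine mRNA decay, 12 of 12 tested, had 2 up and 2 down in KO1 (median 0.04) and 2 up and 7 down in KO2 (median -0.33). Proteins of this group bind AU-rich or stem-loop elements of cytokine mRNA. KHSRP was at 272, 182 and 385 CPM (-0.50 and -1.08, adjusted p = 0.000364 and 4.04e-07), or -0.31 and -0.86 with the GC trend taken out. The 20 genes nearest to KHSRP had medians of -0.41 and -0.57 (-0.575), and the part of that stretch in its change was not tested. ELAVL1, which stabilizes such mRNA, fell in both clones (-0.25 and -0.45, adjusted p = 0.00027 and 3.73e-07). The genes near ELAVL1 were not examined, and their part in its change was not tested. ZFP36L1, which promotes decay, fell in KO2 (-0.46, adjusted p = 1.95e-06), and RC3H2, of the roquin family, rose there (0.43, adjusted p = 2.38e-06).

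Proteases and their partners that shed IL6R, CSF1 and other membrane proteins numbered 6, of which 3 rose and 1 fell in KO1 and 0 rose and 4 fell in KO2. ADAM10 was at 328, 188 and 228 CPM in KO1, KO2 and WT (0.52 and -0.28, adjusted p = 1.08e-06 and 0.000167). ADAM17, the main shedding protease of IL6R, rose in KO1 (0.39, adjusted p = 3.96e-05). FURIN was called in KO2 (-0.88, adjusted p = 0.000153), at -0.57 after removal of the GC trend. In KO1 it was not called at 0.15 (adjusted p = 0.331), but passed at 0.41 after that removal (adjusted p = 2.48e-08). RHBDF1 was called at -0.22 and -0.45 (adjusted p = 0.0445 and 0.000258), but at 0.07 and -0.09, its values with the GC trend taken out, neither passed. Its KO1 call was also lost without WT replicate 1 (-0.23), 2 (-0.18) or 3 (-0.21), KO1 replicate 2 (-0.16) or 3 (-0.19), or KO2 replicate 1 (-0.21).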

How the data were processed

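RNA of 9 MDA-MB-231 libraries (3 each of KO1, KO2 and WT) was sequenced by the authors. The deposited tables hold raw read counts per gene symbol, without normalization. Reads were aligned with HISAT2, per the file headers. The submitters' processing notes also name Trim Galore, and hg38, GRCm38 and mm10 without a role; the symbols are human. For versions, read counter, annotation and strand, nothing is stated in the sources used here. The analysis used edgeR 4.0.16 (R 4.3.3): filterByExpr, TMM factors, and a robust quasi-likelihood fit with 1 mean per group over all 9 libraries. Standard errors were taken as the log2 change over the root of the quasi-F statistic. Steps were tested on simulated data. Alternatives used limma 3.58.1, DESeq2 1.42.0, other scalings and filters, a replicate block, fits of only 2 groups, and each library left out; removal of each library's GC trend (lowess, span 0.3, genes with mean log2 CPM of at least 2) was chosen after seeing the data. Positions, exon lengths and GC content are from GENCODE release 29 (GRCh38). Neighbours are the 20 nearest protein-coding genes above the same limit. The numbers 1 to 3 in the labels did not pair libraries (correlation of deviations between -0.086 and 0.033), so no block was used. Libraries of a group differed beyond sampling noise, with chi-square per degree of freedom from 6.36 to 31.95. Floors are 3 counts and cover counting error only. All members were named, with up to 4 called genes of each list by the smallest p, and the 6 genes most like IL6 and CSF3. Some genes that this rule names are left out and not reported here. OSM and CSF3R were named after their values were seen. Members and lists were chosen with earlier results of these data known. Strand being unknown, reads of overlapping genes cannot be told apart.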

Additional observations from a re-analysis of the deposited data

Results flagged for a closer look

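CSF1 and CSF2 moved in opposite directions in the clones, with every KO1 library above and every KO2 library below all WT libraries. The share of all genes with this pattern was not counted, so it cannot be called particular to these genes. Pathway genes such as SOCS6, PIAS1, VEGFA and ADAM10 had the same pattern, and CSF2RB had the reverse. For CSF1 the log2 changes were 0.38 in KO1 and -0.52 in KO2. For CSF2 they were 0.8 in KO1 and -0.34 in KO2. The CSF2 change in KO2 was -0.19 without WT replicate 1 (adjusted p = 0.148), and its call was also lost without KO2 replicate 1 (-0.295, adjusted p = 0.0716) or KO2 replicate 3 (-0.338, adjusted p = 0.0502). The difference between the clones was not tested for these genes, since the members were chosen with it known.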

How the results depend on the processing

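The 18 alternatives gave 1858 values, of which 1786 kept their direction and their side of the threshold, 33 lost a call, 15 gained one, 23 turned sign and 1 moved beyond the replicate spread. The count of members called was 6 or 7 in KO1 and 4 to 7 in KO2, and that of pathway genes 37 to 52 and 50 to 64. The share of all genes called moved as well, from 34.8% in KO1 and 49.4% in KO2. It was 18.6% and 26.4% without a filter, 44.9% and 59.4% with the filter of 1 CPM, and 39.8% and 55.2% with the GC trend taken out. FBXL12 and the differences between the clones held under every alternative run. With each library's GC trend taken out the sign turned for IL11 (0.006), SOCS3 (0.083), CLCF1 (0.057) and RHBDF1 (0.067) in KO1 and for ADAM17 in KO2 (-0.037), and CSF3 in KO2 moved to 3.42; without a filter ADAM17 in KO2 was at -0.008. Leaving out 1 library turned the sign of uncalled values: LIFR -0.073 to 0.041, IL1R1 -0.077 to 0.366 and IL17RA -0.008 to 0.097 in KO1, and IL6ST -0.001 to 0.107, CTF1 -0.024 to 0.043, CSF1R -0.214 to 0.235, ICAM1 -0.026 to 0.066 and ADAM17 -0.028 to 0.044 in KO2. The cause was not tested. Same-numbered libraries correlated at -0.086 to 0.033, so the numbers do not pair them; with a replicate block 6 members were called in KO1 and 5 in KO2, RHBDF1 in KO1 (-0.22) lost its call, and CSF1R in KO2 was at -0.017. CSF2RB has no value under the filter of 1 CPM. Depth limits genes such as CSF2RB and CSF1R, whose mean lies below 1 CPM in each group.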
